A study of Mus with 8 samples.

Results

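Mt1, Mt2 and Ndufa4l2 are 3 of the 32285 genes counted in single blood progenitor cells of newborn and 14-day-old mice. They were selected on measured values of the same libraries, which had shown them high in newborn cells, concentrated in 1 lineage, low or near 0 at 14 days and detected in the same cells. For that reason their lineage spread, their loss with age, their co-detection and their genotype ratio are given here as descriptions without a test. The cells came from pups on the day of birth (P0) or 14 days later (P14), and were sorted as lineage-negative Kit+ (LK), a fraction rich in committed progenitors, or as lineage-negative Sca1+ Kit+ (LSK), which holds stem and multipotent cells. At each age and in each fraction 1 library came from mice heterozygous for the type I interferon receptor (Ifnar+/-) and 1 from mice without it (Ifnar-/-). This gives 8 libraries, 1 per combination, so a single contrast of age, fraction or genotype with the other conditions held fixed rests on 2 libraries, and ages were compared in 4 such pairs. The labels write the receptor gene without a number, name no organ, and do not say how many pups were pooled. Intervals below are exact 95% intervals and cover counting error only.

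Metallothioneins are small cysteine-rich proteins that bind zinc and copper. Mt1 and Mt2 are the widely expressed pair in mice, and their transcription is driven by zinc through the factor MTF1 and also by glucocorticoids and oxidative stress. The liver of fetal and newborn rodents, which makes blood until the marrow takes over, is known for high metallothionein. Ndufa4l2 encodes a mitochondrial protein related to NDUFA4, a subunit of the respiratory chain, and is a textbook target of the hypoxia-inducible factor HIF-1 that lowers mitochondrial respiration. In the GRCm38.p6 assembly (mm10) Mt2 lies on chromosome 8 from 94172618 to 94173567 and Mt1 from 94178883 to 94180327, with 5315 bases between them. Ndufa4l2 lies on chromosome 10 from 127509274 to 127517154, and its paralog Ndufa4 on chromosome 6 from 11900372 to 11907450.

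Values were read in 35549 cells with at least 7500 gene UMI (unique molecular identifiers, each counting 1 captured RNA molecule) and at most 10% mitochondrial UMI, between 2411 and 5891 per library. The cells of a library held between 100486590 and 302507736 gene UMI, and the median cell held between 25597 and 46231. Any 2 libraries shared between 1 and 10 cell barcodes. Ifnar1 RNA did not mark the genotype: it stood at 15.8 UMI per 1000000 gene UMI (CPM) in P0 LK Ifnar+/- and 14.7 in P0 LK Ifnar-/-, and 3' tags outside the deleted part would carry no check of the labels. Of 10 hepatocyte genes, all 10 had UMI in each P0 library and 5 in each P14 library, with summed levels of 34.0 to 49.8 CPM at P0 and 32.8 to 51.1 CPM at P14, most of it from transferrin (Trf). Albumin (Alb) stood at 1.30 to 2.93 CPM in the P0 libraries and had 0 UMI in each P14 library. Within P0 LK Ifnar+/- cells Alb was 1.77 CPM in erythroid-like cells and 2.31 CPM in stem-like cells, whereas Apoa1 was 10.6 and 1.99 CPM. The part of liver RNA in the values below was not tested.

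Mt1 was at 1268.5 CPM (95% interval 1264.5 to 1272.5) in P0 LK Ifnar+/-, 1218.3 in P0 LK Ifnar-/-, 77.5 in P0 LSK Ifnar+/- and 133.1 in P0 LSK Ifnar-/-. At P14 it was at 213.8, 302.2, 5.24 and 5.25 CPM in the same order. Mt2 was at 901.7, 794.4, 51.9 and 109.9 CPM at P0, and at 48.3, 75.1, 0.566 and 0.809 CPM at P14. Both metallothioneins were thus highest in newborn LK and lowest in 14-day LSK. Between these, 14-day LK stood above newborn LSK for Mt1, and the 2 kinds of library overlapped for Mt2. Ndufa4l2 was at 70.8 CPM (69.8 to 71.7), 121.9, 4.72 and 12.7 CPM at P0, from 21409, 29033, 837 and 1732 UMI. At P14 it was down to 6, 7, 0 and 1 UMI in whole libraries, found in 5, 7, 0 and 1 cells. Among the P0 libraries LK and LSK did not overlap for any of the 3 genes. The share of all genes without such an overlap was not counted, so nothing is read from this.

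**Figure D1:**
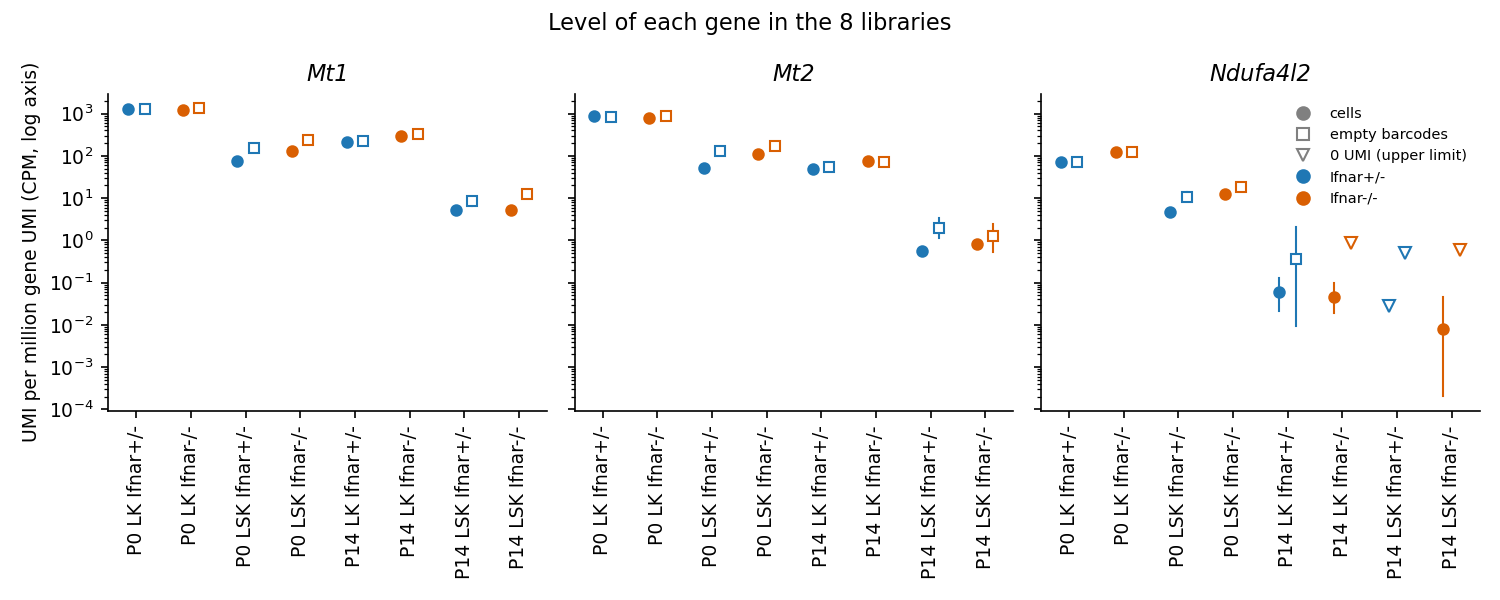
Level of Mt1, Mt2 and Ndufa4l2 in each of the 8 libraries, in UMI per 1000000 gene UMI (CPM) on a log axis, for cells (filled circles) and for empty barcodes of the same library (open squares). Bars are exact 95% intervals and open triangles mark the upper limit where 0 UMI were counted; Ndufa4l2 reaches 121.9 CPM at P0 and stays at 7 UMI or fewer in every P14 library.

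All 3 genes were at least 2-fold lower in newborn LSK than in newborn LK cells, in both genotypes. The log2 ratio of LSK over LK in Ifnar+/- was -4.03 for Mt1, -4.12 for Mt2 and -3.91 for Ndufa4l2. Of all genes with at least 50 UMI in either library, 5.43% were at least 2-fold lower in LSK in Ifnar+/- and 5.58% in Ifnar-/- (800 genes, and 1500 with TMM scaling). The classes of cells below show where in each gate the UMI lay.

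Clustering the cells without the 3 genes, and naming clusters by marker lists, gave an erythroid-like class, which carries red-cell genes such as Gata1, Klf1, Car2 and Epor. Apoa1 was among the leading genes of its cluster 11. Erythroid-like cells were 32.4% of P0 LK Ifnar+/- cells and held 89.1% of its Mt1 UMI, 95.5% of its Mt2 UMI and 95.9% of its Ndufa4l2 UMI. In P0 LK Ifnar-/- they were 36.3% of cells and held 89.85%, 96.5% and 97.4%. The concentration was steeper in newborn LSK. There 66 erythroid-like cells of 5122 in Ifnar+/- held 85.3% of Mt1, 97.2% of Mt2 and 99% of Ndufa4l2 UMI, and 64 cells of 3471 in Ifnar-/- held 91.5%, 97.6% and 98.4%. The newborn LSK signal thus lay in very few cells. These were deep, with medians of 77933.5 and 102971 gene UMI, against 32316.5 and 36534 over all cells of their libraries. Whether some of them are doublets was not tested.

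Levels within the erythroid-like class were of the same order in the 2 gates. Mt1 was at 2344.4 CPM in P0 LK Ifnar+/-, 2152.9 in P0 LK Ifnar-/-, 2246.6 in P0 LSK Ifnar+/- and 2712.6 in P0 LSK Ifnar-/-. Mt2 was at 1787.6, 1507.6, 1714.1 and 2387.7 CPM, and Ndufa4l2 at 140.8, 233.4, 158.8 and 278.5 CPM. The spread over cells differed between the genes. The 10th, 50th and 90th percentiles of single erythroid-like cells of P0 LK Ifnar+/- were 1445.4, 2237.8 and 3266.1 CPM for Mt1 and 738.2, 1724.1 and 2710.4 CPM for Mt2. For Ndufa4l2 they were 0, 84.2 and 362.0 CPM. The metallothioneins were thus present in nearly every such cell, while Ndufa4l2 ranged from 0 to 963.7 CPM.

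Shares of cells with a UMI, with each cell thinned to 7500 gene UMI, gave the same picture. In P0 LK Ifnar+/- erythroid-like cells 99.95% had an Mt1 UMI, 98.8% an Mt2 UMI and 45.65% an Ndufa4l2 UMI. In HSC-like cells, the class with the stem cell markers, the shares were 32.8%, 25% and 1.51%. Before thinning, median depth was 74362 gene UMI in erythroid-like cells with an Ndufa4l2 UMI, 73139 in those without, and 31084 in HSC-like cells without one. Over all cells of P0 LK Ifnar+/- the share with an Ndufa4l2 UMI was 16.8% thinned and 31.7% unthinned.

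Outside the erythroid-like class the 3 genes parted. Megakaryocyte-like cells, the platelet lineage that shares a progenitor with red cells, came next for all 3 in P0 LK Ifnar+/-, with 653.0 CPM of Mt1, 223.2 of Mt2 and 17.5 of Ndufa4l2. Their intervals did not overlap those of any neighbouring class. Most of this came from cluster 7, at 721.8, 250.2 and 20.1 CPM, whereas cluster 8, led by the platelet gene Pf4, was at 240.9, 61.5 and 2.22 CPM. Cluster 7 matched the megakaryocyte list less well, with a score of 1.042 against 2.857 for cluster 8. The place of the class thus rests on the weaker-named cluster. Cluster 8 alone was below the neutrophil progenitor-like and eosinophil-like classes for Mt1. Neutrophil progenitor-like cells had 408.6 CPM of Mt1 (399.7 to 417.7), but 33.6 CPM of Mt2 and 2.05 CPM of Ndufa4l2. Eosinophil-like cells had 322.5, 62.0 and 4.12 CPM, and monocyte progenitor-like cells 205.4, 42.5 and 3.34 CPM. These myeloid classes thus kept Mt1 high relative to the stem-like cells. Lymphoid-primed-like cells were at 61, 40.2 and 2.20 CPM and HSC-like cells at 49.6, 39.1 and 2.69 CPM. For Ndufa4l2 the intervals of the HSC-like class, 1.94 to 3.64 CPM, and of the neutrophil progenitor-like class, 1.46 to 2.79 CPM, overlapped, so no order among the low classes can be read.

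**Figure D2:**
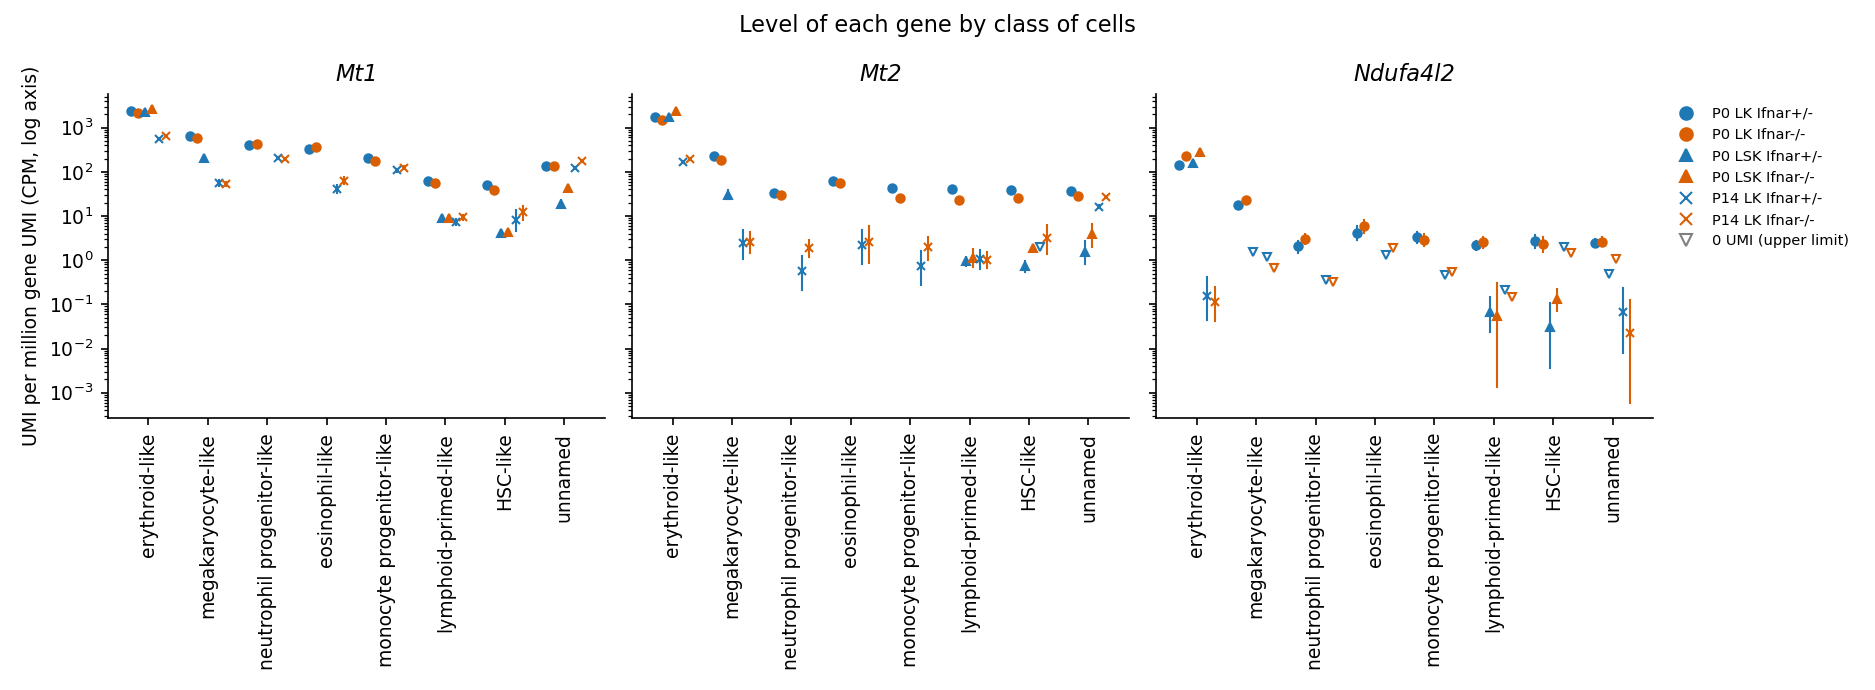
Level of each gene by class of cells, in CPM on a log axis, for the 4 newborn libraries (circles and upward triangles) and the 2 LK libraries at P14 (crosses). Bars are exact 95% intervals and open triangles are upper limits for 0 UMI; the erythroid-like class is highest in each library shown for Mt1 and Mt2, and for Ndufa4l2 at P0.

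The log2 ratio of erythroid-like over HSC-like cells in P0 LK Ifnar+/- was 5.56 (5.46 to 5.67) for Mt1, 5.51 (5.40 to 5.63) for Mt2 and 5.69 (5.27 to 6.18) for Ndufa4l2. In P0 LSK Ifnar+/- the same ratios were 9.05, 11.16 and 12.04, because HSC-like cells there had 4.24 CPM of Mt1, 0.739 of Mt2 and 0.0302 of Ndufa4l2. The HSC-like level thus differed between the LK and the LSK library, and the size of these ratios rests on that level. Library, sort gate and free RNA cannot be told apart here. With 5% of gene UMI removed as free RNA, HSC-like cells of P0 LK Ifnar+/- were at 0 and the ratios became bounds of 13.53, 13.15 and 9.48.

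Barcodes without a cell carry RNA free in the suspension, and their levels give the background for each library. In P0 LK Ifnar+/- empty barcodes held 1269.7 CPM of Mt1, 817.6 of Mt2 and 72.1 of Ndufa4l2. HSC-like cells stood at 3.90%, 4.78% and 3.73% of those levels, a like share for the 3 genes, and in P0 LK Ifnar-/- at 2.92%, 2.87% and 1.86%. Erythroid-like cells stood at 184.7%, 218.6% and 195.4%. Neutrophil progenitor-like cells were at 4.12% for Mt2 and 2.84% for Ndufa4l2 but at 32.2% for Mt1. The Mt1 to Mt2 UMI ratio was 1.55 in empty barcodes, 1.31 in erythroid-like cells, 1.27 in HSC-like cells and 1.52 in lymphoid-primed-like cells. It was 2.93 in megakaryocyte-like, 4.83 in monocyte progenitor-like, 5.20 in eosinophil-like and 12.1 (11.2 to 13.2) in neutrophil progenitor-like cells. The newborn neutrophil, monocyte and eosinophil classes thus had a higher Mt1 to Mt2 ratio than the empty barcodes of their library, and where the UMI of each class came from was not tested. In P0 LK Ifnar-/- the ratio was 1.52 in empty barcodes, 1.55 in HSC-like and 2.35 (2.09 to 2.64) in lymphoid-primed-like cells. Newborn LSK cells stood further from it: in Ifnar+/- the ratio was 1.15 in empty barcodes, 5.74 (4.22 to 7.94) in HSC-like and 9.66 (7.73 to 12.2) in lymphoid-primed-like cells. In P0 LSK Ifnar-/- it was 1.45, 2.23 (1.89 to 2.65) and 7.71 (4.88 to 12.8). At the low levels of these LSK classes, too, Mt1 was thus high relative to Mt2.

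With age all 3 genes were lower in each of the 4 pairs of libraries (P14 over P0, same fraction and genotype). The log2 ratio of Mt1 was -2.57 in LK Ifnar+/-, -2.01 in LK Ifnar-/-, -3.89 in LSK Ifnar+/- and -4.66 in LSK Ifnar-/-. That of Mt2 was -4.22, -3.40, -6.51 and -7.08. Without added counts, Ndufa4l2 was 1185-fold lower in LK Ifnar+/- (544.5 to 3230) and 2612-fold lower in LK Ifnar-/- (1267 to 6496). In LSK Ifnar+/- it was at least 205.7-fold lower, with 0 UMI set to 3 counts (the exact interval has its lower end at 166.9-fold). At 3 counts, 0 of 4615 cells allows a share of cells with a UMI of up to 0.0650%. In LSK Ifnar-/- the fold, also without added counts, rests on 1 UMI and was 1587 (284.4 to 62704). P0 and P14 levels did not overlap within a fraction for any of the 3. How many of all genes likewise did not overlap was not counted, so nothing is read from this either. The labels do not say whether the cells of the 2 ages came from the same organ, so age and organ cannot be told apart either.

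Against all genes with at least 50 UMI in either library of a pair, 3.7%, 3.31%, 4.18% and 7.02% were below the newborn level by 2-fold or more, in the order above, and 1.19% (157 of 13152) were so in every pair. Since this difference chose the genes, nothing is read from their being among them. Ordered by the smallest decrease over the 4 pairs, Ndufa4l2 was at place 1, Mt2 at 16 and Mt1 at 43 of the 13152. This order adds 0.5 counts to each side, so the 0 UMI of P14 LSK Ifnar+/- were not set to 3 counts as above. In the single pairs Ndufa4l2 was at places 1, 2, 1 and 5. The genes were chosen on this difference, so nothing is read from their places either. The median gene was 0.13 and 0.14 (log2) higher at P14 in the LK pairs, and -0.037 in both after TMM scaling. Hepatocyte genes were lower at P14 as well. Of the 10, 8 had enough UMI, and 5 of them (Alb, Apoa1, Ttr, Serpina1e and Ahsg) were at least 2-fold lower in each of the 4 pairs. With counts of 0 set to 3, the median log2 ratios of the 8 were -3.73, -3.42, -3.59 and -3.33. In erythroid-like LK cells 5 of 8 were likewise lower in both genotypes, with medians of -2.17 and -2.74. Their part in the differences of the 3 genes was not tested.

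Ndufa4, the paralog that serves the respiratory chain, showed no such loss. It was at 808.9, 767.5, 843.2 and 688.5 CPM at P0 and at 858.3, 848.4, 963.9 and 964.8 CPM at P14, in the library order used above. The other members of the metallothionein family were close to absent at both ages: Mt3 was at 0.264 CPM or less and Mt4 had 0 UMI in each library.

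Lower levels at P14 were also present within the erythroid-like class, whose share of LK cells was lower at P14 as well, at 16.5% in Ifnar+/- and 21.2% in Ifnar-/-. This share rests on the naming rule. Cluster 12 stayed unnamed although its best score was for the erythroid list, at 1.196 against 1.005 for cluster 11. Unnamed cells were 34.8% and 36.2% of P14 LK cells, against 13.3% and 14.0% at P0 (Ifnar+/- and Ifnar-/-). No lower erythroid share with age can thus be read. Mt1 in this class was 4.16-fold lower at P14 in Ifnar+/- and 3.28-fold lower in Ifnar-/-, at 563.3 and 656.5 CPM. Mt2 was 10.5-fold and 7.80-fold lower, at 171.0 and 193.3 CPM. Ndufa4l2 was 789-fold (346.7 to 3259) and 1856-fold (923.8 to 5481) lower, on 4 and 6 UMI. Different clusters hold the class at the 2 ages. Clusters 11, 16 and 19 made up the newborn class but for 1 cell, and cluster 13 held 98.7% and 98.4% of the P14 class. Set against cluster 11 alone, which has little globin RNA, cluster 13 was 4.06-fold and 3.14-fold lower for Mt1, 9.58-fold and 6.97-fold for Mt2, and 681-fold and 1405-fold for Ndufa4l2. Set against cluster 16, which has more, it was 4.45-fold and 3.64-fold, 12.1-fold and 9.31-fold, and 942-fold and 2448-fold lower. The order of the 3 genes by fold was the same either way. In the unnamed LK class Mt1 was at 138.5 CPM at P0 and 125 CPM at P14 in Ifnar+/-. In Ifnar-/- it was at 137.1 and 173.8 CPM (log2 ratio 0.34, 0.29 to 0.40). The log2 ratio of Mt2 in this class was -1.15 in Ifnar+/- and -0.053 (-0.19 to 0.081) in Ifnar-/-. This class, too, held different clusters at the 2 ages. Clusters 1 and 3 held 566 and 217 of its 785 cells in P0 LK Ifnar+/-, and 565 and 244 of 810 in P0 LK Ifnar-/-. Cluster 1 had fewer than 50 cells in each P14 library, and the P14 class includes cluster 12, given below. These ratios are thus not changes within 1 cluster.

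Between the ages Mt2 differed by a larger factor than Mt1, and the ratio of the 2 also differed within named classes. The erythroid-like class holds different clusters at the 2 ages, as given above. In erythroid-like LK cells the Mt1 to Mt2 UMI ratio went from 1.31 and 1.43 at P0 to 3.295 and 3.40 at P14 (Ifnar+/- and Ifnar-/-). In neutrophil progenitor-like cells of P14 LK Ifnar+/- it was 359.7 (165.0 to 981.2), from 2158 Mt1 UMI and 6 Mt2 UMI, and in Ifnar-/- it was 100.4 (66.2 to 160.6), from 2209 and 22 UMI. Mt1 in that class was at 408.6 CPM at P0 and 207.3 CPM at P14 in Ifnar+/-, and at 418.8 and 191.1 CPM in Ifnar-/-. Its Mt2 at P0 stood at only 4.12% and 3.37% of the empty-barcode level (Ifnar+/- and Ifnar-/-). In LK Ifnar+/- that empty-barcode level was itself 817.6 CPM at P0 and 55.2 CPM at P14. The part of free RNA in the ratios of this class was not tested. At 14 days neutrophil progenitor-like cells held 10.0% and 4.87% of the Mt1 UMI of the LK libraries, and unnamed clusters a further 17.7% and 16.9%. Cluster 12, unnamed though its best score was for the erythroid list, was at 305.9 and 377.5 CPM of Mt1 and at 43.1 and 60.5 CPM of Mt2, with 2 and 1 Ndufa4l2 UMI. Erythroid-like cells held most of both genes at 14 days, with 66.2% and 74.9% of the Mt1 UMI and 88.8% and 88.7% of the Mt2 UMI.

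Newborn cells with Ndufa4l2 mostly had the metallothioneins too, whereas cells with Mt1 often lacked the other 2 genes in LSK. All shares here are of cells thinned to 7500 gene UMI. In P0 LK Ifnar+/- 96.3% of cells with an Ndufa4l2 UMI had an Mt1 UMI, against 66% of cells without one. This excess of 30.2 percentage points depends on depth, and was 8.26 unthinned and 48.5 with cells thinned to 2000 UMI. The pairs of shares were 97.5% and 64.5% in P0 LK Ifnar-/-, 97.1% and 5.76% in P0 LSK Ifnar+/-, and 93.8% and 4.76% in P0 LSK Ifnar-/-. Mt2 was found in 93.7%, 94.0%, 97.1% and 93.8% of cells with Ndufa4l2, and in 44.6%, 37.3%, 1.38% and 2.40% of cells without. All 3 genes were seen together in 921 cells (15.6%), 1218 cells (21.1%), 33 cells (0.644%) and 45 cells (1.30%) of the newborn libraries, and in 0, 1, 0 and 0 cells at P14. Ndufa4l2 without either metallothionein was seen in 32, 25, 1 and 3 newborn cells. Of newborn cells with Mt1, 64.0%, 62.7%, 23.3% and 38.9% had Mt2. Just 1 of the 3 genes was seen in 1932, 1804, 278 and 176 newborn cells.

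Much of this joint detection came with the erythroid-like class. Without those cells the excess of Mt1 in Ndufa4l2-positive cells of P0 LK Ifnar+/- was 11.4 percentage points instead of 30.2, and that of Mt2 18.5 instead of 49.2. In HSC-like cells of that library 27.6% of Mt1-positive and 23.7% of Mt1-negative cells had Mt2. In lymphoid-primed-like cells the shares were 28.5% and 27.7%, and in neutrophil progenitor-like cells 21.6% and 23.1%. In megakaryocyte-like cells 56.6% of Mt1-positive and 24.6% of Mt1-negative cells had Mt2, as had 73.6% of Ndufa4l2-positive and 49.5% of Ndufa4l2-negative cells. In eosinophil-like cells the shares with Mt2 were 36.3% (28.8 to 44.4) of Mt1-positive and 19.05% (8.60 to 34.1) of Mt1-negative cells in Ifnar+/-, and 28.9% and 14.9% in Ifnar-/-. In HSC-like cells of P0 LSK Ifnar-/- they were 8.22% (3.08 to 17.0) and 1.51% (1.09 to 2.04). The order was the other way in HSC-like cells of P0 LK Ifnar-/-, at 12.3% (7.05 to 19.5) and 19.6% (15.8 to 23.95). So it was in lymphoid-primed-like cells of P0 LSK Ifnar+/-, at 0% (0 to 2.68) and 0.66% (0.38 to 1.05). In both the intervals overlapped, so no reversed direction can be read from them. Outside the erythroid-like class the size of the excess thus differed between classes and libraries.

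The share of newborn LK cells with Ndufa4l2 went up with the number of Mt1 UMI, with a step between low and high counts. In Ifnar+/- it was 2.17%, 1.81%, 2.42%, 6.74%, 36.2% and 50% of cells with 0, 1, 2 to 3, 4 to 7, 8 to 15, and 16 or more Mt1 UMI. In Ifnar-/- it was 2.04%, 2.40%, 3.48%, 13.5%, 47.4% and 61.3%. Among erythroid-like cells alone the last 3 shares were 21.4%, 41.9% and 50.5% in Ifnar+/- and 33.1%, 51.9% and 62.5% in Ifnar-/-. The gradient was thus there inside the class as well, over a narrower range.

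**Figure D3:**
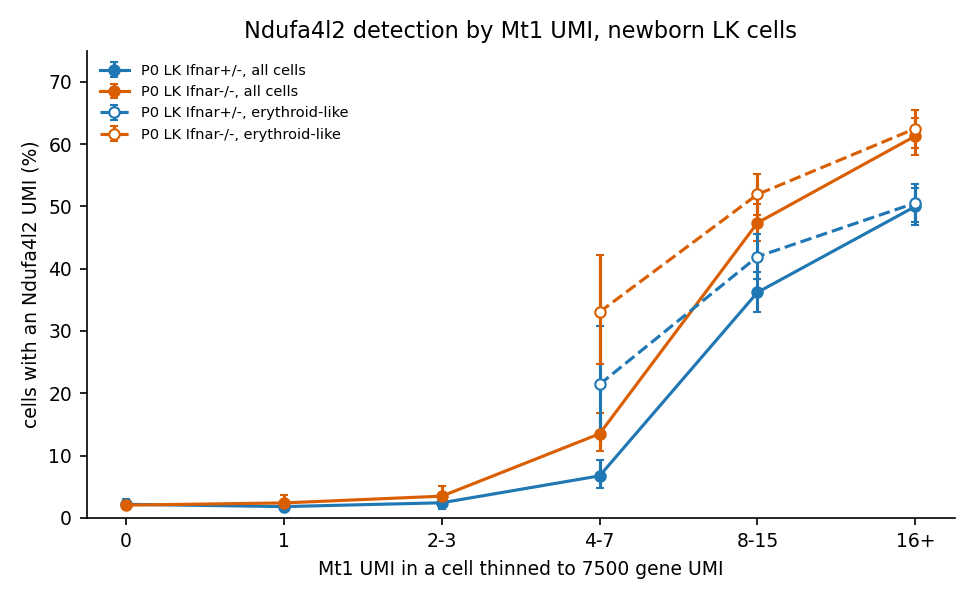
Share of newborn LK cells with at least 1 Ndufa4l2 UMI (percent, exact 95% intervals) against the Mt1 UMI in the same cell, each cell thinned to 7500 gene UMI, for all cells (solid lines) and erythroid-like cells (dashed lines). The share is under 4% below 4 Mt1 UMI and reaches 50% in Ifnar+/- and 61.3% in Ifnar-/- at 16 or more.

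Clusters 11 and 16 differed in their red-cell genes and in Ndufa4l2. Cluster 11 (1143 cells of P0 LK Ifnar+/-) had 7.13 CPM of the globin gene Hba-a1 and 555.5 CPM of the carbonic anhydrase gene Car2. Cluster 16 (666 cells) had 124.9 and 1276 CPM, and 240.0 against 148.4 CPM of Klf1, a master regulator of globin genes. Ndufa4l2 was at 124.3 CPM in cluster 11 and 172.0 CPM in cluster 16 in Ifnar+/-, and at 181.2 and 315.9 CPM in Ifnar-/-. At equal depth it was seen in 39.9% and 57.2% of their cells in Ifnar+/- and in 46.0% and 71.8% in Ifnar-/-. Of these 2 clusters the one with more globin RNA thus had more Ndufa4l2 in both genotypes. In CPM this did not extend to cluster 19 (99 and 128 cells), which had 35.3 and 69.5 CPM of Hba-a1, more than cluster 11, but 95.9 and 138.6 CPM of Ndufa4l2, less than cluster 11. By cells at equal depth it was not less in Ifnar-/-. There 67 cells of cluster 19 had an Ndufa4l2 UMI and 61 had none, against 545 and 639 in cluster 11. In Ifnar+/- 65 of the 99 cells had none, against 687 of 1143. Cluster 19 was deeper than both and had 94.8 CPM of Cd34, a gene of earlier progenitors, in Ifnar+/-. The neutrophil gene Camp was at 229.8 CPM in its Ifnar-/- cells and at 2.51 CPM in its Ifnar+/- cells, against 1.42 to 1.66 CPM in clusters 11 and 16. Whether cluster 19 holds doublets was not tested.

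The antibody tags counted on the same cells were not used to choose the genes or to cluster. Within cluster 11 the median CD150 tag count was 65.5 in cells with an Ndufa4l2 UMI and 82 in those without in Ifnar+/-, and 66 and 99 in Ifnar-/-. In cluster 16 the medians were 15 and 16 in Ifnar+/- and 13 and 15 in Ifnar-/-. CD150 is a surface protein of stem cells and early erythroid and megakaryocyte progenitors that is lost as red-cell precursors mature. Ndufa4l2-positive cells thus had the lower median in each of the 4 comparisons, over cells of 1 library each and with no test across animals. CD150 was picked from the 10 tags after its values were seen, and other tags differed too. Over the whole erythroid-like class the median CD48 count was 2211 with and 2683 without Ndufa4l2 in Ifnar+/-, and 2282 and 2980 in Ifnar-/-. CD41 was at 13 and 17, and 11 and 17, while CD117, the Kit protein, was at 1152 and 1094, and 1109 and 1126. These class-wide medians mix the clusters. Within cluster 11 CD48 was at 2878 and 3094 in Ifnar+/-, and at 3039 and 3337 in Ifnar-/-. In cluster 16 it was at 1210 and 1273, and the other way in Ifnar-/-, at 1476 and 1316. CD117 was at 1166 and 1050, and 1153 and 1110, in cluster 11. In cluster 16 it was at 1079 and 1099, and 1030 and 1028. Within clusters CD41, like CD150, had the lower median with Ndufa4l2 in all 4 comparisons. CD41 was at 16.5 and 18, and 14 and 20, in cluster 11, and at 9 and 11, and 8 and 8.5, in cluster 16.

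Several RNAs were also set side by side in cells with and without Ndufa4l2. Inside clusters 11 and 16 Mt1 was 0.17 and 0.13 (log2) higher in cells with Ndufa4l2 in Ifnar+/-, and 0.19 and 0.13 higher in Ifnar-/-. Mt2 was 0.28 and 0.13 higher, and 0.36 and 0.17 higher. Egln3, the oxygen-sensing prolyl hydroxylase that HIF itself induces, was 0.18 and 0.26 higher, and 0.31 and 0.39 higher. Hif3a, of the hypoxia list, was at 0.06 and 0.09, and at -0.14 and -0.08. Genes outside that list differed as well. Rhd was at 0.45 and 0.07, and at 0.50 and 0.10. The globin gene Hba-a1 was at 0.52 and 0.08, and at 0.31 and 0.58. The red-cell gene Epor was at 0.13 and -0.001, and at 0.17 and 0.03. Ndufa4 was at 0.020 and -0.003, and at -0.025 and -0.024. Of the genes of the hypoxia list, 24 of 30, 17 of 29, 21 of 30 and 23 of 30 were higher, with medians of 0.04, 0.03, 0.11 and 0.10 against -0.02, -0.0045, -0.01 and -0.02 over all genes. Of all genes 4196 of 10549, 4651 of 9704, 4533 of 10135 and 4325 of 9737 were higher. Other lists differed as well: of 16 complex I and IV genes 13 and 14 were higher in cluster 11 (Ifnar+/- and Ifnar-/-) and 6 and 9 in cluster 16. Of the glucocorticoid genes 9 of 9 were higher in cluster 16 of Ifnar+/-, with a median of 0.15, and 6 of 8 in that of Ifnar-/-, but 2 of 9 and 3 of 9 in cluster 11.

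In newborn LK cells the genotype ratios of the 3 genes differed in sign. There Ndufa4l2 was 1.72-fold higher in the Ifnar-/- library, a log2 ratio of 0.78 (0.76 to 0.81), while Mt1 was at -0.058 and Mt2 at -0.18. None of the 3 was at least 2-fold higher, as 0.171% of all genes were (24 of 14030). The pattern held inside the class and its clusters. In erythroid-like LK cells Ndufa4l2 went from 140.8 to 233.4 CPM, at a log2 ratio of 0.73, with Mt1 at -0.12 and Mt2 at -0.25. Cluster 11 gave 0.54, cluster 16 gave 0.88 and cluster 19 gave 0.53 for Ndufa4l2, while Mt1 was at -0.16, -0.07 and -0.21 and Mt2 at -0.29, -0.20 and -0.43. The single-cell distribution moved with it: the median erythroid-like cell had 84.2 CPM of Ndufa4l2 in Ifnar+/- and 154.9 in Ifnar-/-, and the 90th percentile was 362.0 and 569.7 CPM. Each genotype is 1 library, so genotype and library cannot be told apart.

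In newborn LSK cells all 3 were higher in the Ifnar-/- library, with log2 ratios of 0.78 for Mt1, 1.08 for Mt2 and 1.43 for Ndufa4l2. Of all genes 4.52% (638 of 14130, and 423 genes with TMM scaling) were at least 2-fold higher there, as Mt2 and Ndufa4l2 were. With TMM scaling Mt2 was at 0.96, below 2-fold, and Ndufa4l2 at 1.30. These ratios mix the share of erythroid-like cells with their level. Larger classes differed between the newborn LSK libraries too. HSC-like cells were 36.9% of the heterozygous library and 82.05% of the one without the receptor. For lymphoid-primed-like cells the shares were 53.1% and 11.35%. The part of this difference in the library ratios was not tested. Within the 66 and 64 erythroid-like LSK cells the ratios were 0.27, 0.48 and 0.81, and the class was made up differently, with cluster 11 at 42.4% in Ifnar+/- and 21.9% in Ifnar-/-. At P0 Ndufa4l2 was thus higher in the Ifnar-/- library in both gates and in each cluster given, while the metallothioneins were higher in LSK and not in LK. At P14 Mt1 and Mt2 were 0.50 and 0.64 (log2) higher in Ifnar-/- LK, but 0.22 and 0.18 higher within its erythroid-like cells, and Ndufa4l2 had too few UMI for a ratio.

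**Figure D4:**
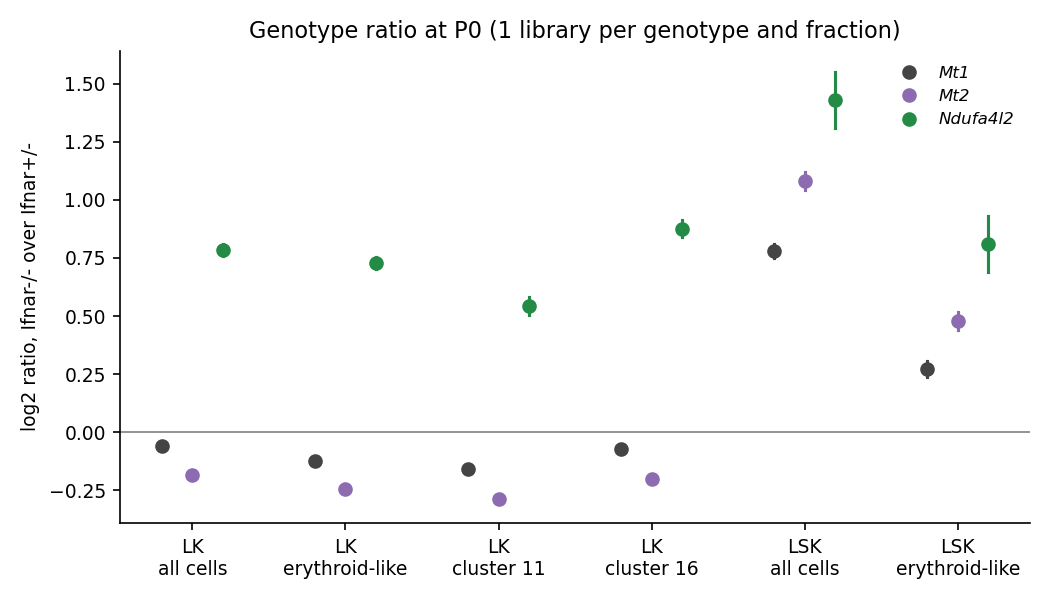
Log2 ratio of each gene's level in Ifnar-/- over Ifnar+/- newborn libraries, for all cells, erythroid-like cells and 2 erythroid-like clusters of LK, and for all and erythroid-like cells of LSK. Bars are exact 95% intervals for counting error, with 1 library per genotype and fraction; Ndufa4l2 lies between 0.54 and 1.43 throughout, and Mt1 and Mt2 lie below 0 in LK and above 0 in LSK.

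Lists of genes that act around the 3 were compared over age in the same way, without the 3 themselves. Hypoxia genes included several that were lower in each pair. Of 33 genes of the HIF pathway and its targets 31 had enough UMI, and in each of the 4 pairs Egln3, P4ha2 and Hif3a were 2-fold or more below their newborn level, 3 of 31 against 1.19% of all genes. The list's median log2 ratios were -0.32, -0.53, -0.17 and -0.33, against 0.14, 0.14, 0.07 and -0.050 over all 13152 genes. In erythroid-like LK cells 8 of 31 were at least 2-fold lower in both genotypes, against 2.64% of all genes (307 of 11632). They were Egln1, Egln3, Ndrg1, Slc2a1, P4ha1, P4ha2, Ak4 and Bhlhe40, which include oxygen sensors, a glucose transporter and collagen prolyl hydroxylases. The median there was -0.64 and -0.67, against 0.13 in both for all genes. Egln3 had the lowest ratio of the list, at -5.50 and -5.43 in erythroid-like cells, and P4ha2 was at -2.33 and -3.56. Hif1a itself, which is controlled mainly at the protein level, was at -0.21, -0.21, -0.27 and -0.33 in the 4 library pairs, and Epas1 had too few UMI.

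Of 27 zinc and copper genes 26 had enough UMI, and Slc30a10 alone (1 of 26, against 1.19% of all genes) was at least 2-fold lower in all 4 pairs, at -4.04, -3.77, -5.20 and -6.69. Slc30a10 encodes a manganese exporter of the zinc transporter family. Mtf1, the zinc-sensing factor, was at -0.05, -0.01, 0.08 and -0.07, and Slc30a1, the zinc exporter that it drives, at 0.09, 0.07, 0.63 and 0.30. The list's medians were 0.11, 0.09, 0.04 and -0.12, and those of all genes 0.14, 0.14, 0.07 and -0.050.

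None of 19 respiratory complex I and IV genes and none of 14 oxidative stress genes was 2-fold apart in all 4 pairs. Among these Nfe2l2, which encodes the regulator NRF2, was at 0.33, 0.38, 0.01 and -0.21, and its inhibitor Keap1 at -0.03, 0.10, -0.02 and -0.05. Of 9 glucocorticoid response genes Ddit4, which restrains mTOR signalling and also responds to hypoxia, was the 1 that was lower in all 4 pairs (1.19% of all genes), at -1.56, -1.24, -1.73 and -1.21. The medians of that list were -0.46, -0.09, -0.27 and -0.80. The receptor gene Nr3c1 was at 0.07, 0.17, 0.56 and 0.31, and the glucocorticoid target Tsc22d3 at -0.78, -0.47, -0.94 and -0.80. Of 9 heat shock and dissociation genes 1, Fosb, was at least 2-fold higher at P14 in all 4 pairs, as 0.928% of all genes were, and the list's medians were 0.43, 0.25, 0.03 and -0.21. In erythroid-like cells 4 of 8 (Fos, Fosb, Jun and Egr1) were so in both genotypes, against 4.44% of all genes. These genes also respond to cell dissociation, and their part in the differences above was not tested.

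**Figure D5:**
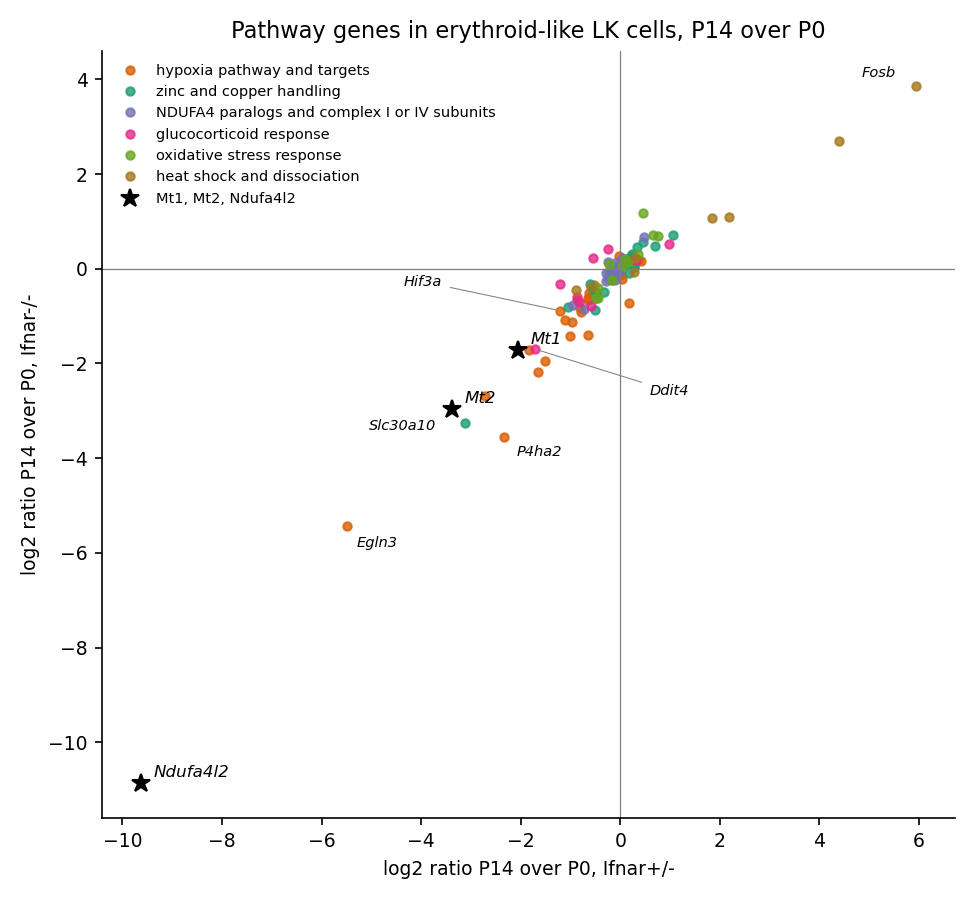
Log2 ratio of P14 over P0 in erythroid-like LK cells, Ifnar+/- on the horizontal and Ifnar-/- on the vertical axis, for the genes of 6 lists (coloured points) and for Mt1, Mt2 and Ndufa4l2 (stars). Most list genes lie near 0; Egln3 at -5.50 and -5.43 is the list gene closest to Ndufa4l2, and Fosb lies at 5.94 and 3.87.

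The hypoxia list was also read across genotype in newborn erythroid-like LK cells, where Ndufa4l2 was higher in Ifnar-/-. There 23 of 31 genes were higher in Ifnar-/-, with a median log2 ratio of 0.13 against -0.006 over all 11954 genes, of which 5767 were higher. None of the 31 was at least 2-fold higher, as 0.318% of all genes were. Single genes were at 0.82 for P4ha2, 0.35 for Egln3 and -0.09 for Hif3a, and Slc30a10 was at 0.37. In clusters 11 and 16 alone the medians were 0.10 and 0.15. Fos and Fosb, of the dissociation list, were at 1.70 and 2.15 in the same comparison, and their part in it was not tested.

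The genes whose levels ran most like each of the 3 were read from 41 units, a unit being 1 class in 1 library with at least 50 cells, over 13333 genes. The units share libraries, free RNA and depth, so the correlations of log2(CPM + 1) are a description. Closest to Mt1 were Atpif1 (r = 0.92), Cenpv (0.92), Tstd3 (0.91), Med8 (0.91) and Ebna1bp2 (0.91). Closest to Mt2 were Col5a1 (0.93), Tcrg-C1 (0.91), Uqcrc2 (0.91), Las1l (0.90) and Dap3 (0.90). Uqcrc2 and Dap3 encode mitochondrial proteins. Closest to Ndufa4l2 were Scd1 (0.90), Redrum (0.90), 0610040J01Rik (0.90), Slc30a10 (0.90) and Tcrg-C1 (0.89). The same was done over the 21 newborn units alone. Ermap was at 0.97, Ndufa4l2 at 0.95, and Col5a1, Mt1 and Sptb each at 0.94 for Mt2. Add2, Ank1 and Ces2g each stood at 0.97, and Rhd and Slc25a21 at 0.96, for Ndufa4l2. For Mt1 they were Mcts2 and Tada2b, each at 0.97, and Mt2, Derl1 and Tmem97, each at 0.94. In the newborn units Ndufa4l2 was thus at place 2 for Mt2 but at place 145 for Mt1, and Mt2 at place 17 for Ndufa4l2.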

How the data were processed

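Single cells were captured with the 10x Genomics 3' chemistry, version 3.1, per the labels' protocols. The values are raw counts (UMI per gene and barcode) deposited by the authors for every barcode, with 10 antibody tags. The file headers and the submitters' processing notes name different Cell Ranger versions (6.0.1 in the notes, with build mm10), and the gene annotation release is not given in the sources used here. Cells were barcodes with at least 7500 gene UMI and at most 10% mitochondrial UMI; between 2 and 19 cells of a library lay within 10% above that floor, and empty barcodes were those with 100 UMI or fewer. The depth was 100486590 to 302507736 gene UMI per library. Cells were normalised, 2000 variable genes without the 3 studied genes, mitochondrial, Xist, Tsix and Y-linked genes were reduced to 30 components, and Leiden clusters at resolution 1 were named "-like" from marker lists by a scoring rule set after the clusters were seen (Python 3.11.15, scanpy 1.11.5, igraph 0.11.9, scipy 1.17.1). Doublets were kept, since Scrublet's own threshold marked under 0.5% of cells in 6 of the 8 libraries; a call at the expected rate was an alternative. CPM is UMI per 1000000 gene UMI of the cells summed. Log2 ratios add 0.5 counts to each side, and genes needed 50 UMI in either library; TMM factors came from edgeR 4.0.16 and no test was run, because each group is 1 library. Ratio intervals are conditional exact, shares exact Clopper-Pearson and levels exact Poisson, all at 95%. The ratio code was checked on simulated data. Coordinates are from RefSeq for GRCm38.p6. The genes, lists, marker sets and comparisons were chosen with earlier results of these data known. Named genes were the 3, Ndufa4, the 5 closest by level to each, list genes at least 2-fold apart one way in all 4 age pairs, and the first 2 regulators of a list; Jun, Fos, Egr1, the other erythroid hypoxia genes, the cluster genes, the other liver genes, the tags, Alb and Apoa1 were named after their values were seen.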

Additional observations from a re-analysis of the deposited data

Results flagged for a closer look

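Mt1 and Mt2 were lower in Ifnar-/- than in Ifnar+/- newborn LK cells and higher in newborn LSK cells. The LSK log2 ratio exceeded the LK one by 0.84 for Mt1 and by 1.26 for Mt2. Each ratio rests on 1 library per genotype, and the difference between the fractions was not tested. The newborn LSK libraries also differed in their shares of HSC-like and lymphoid-primed-like cells, as given above. Library ratios mix the share of erythroid-like cells with their level: within erythroid-like cells the LSK and LK ratios were 0.27 and -0.12 for Mt1, and 0.48 and -0.25 for Mt2.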

How the results depend on the processing

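No result changed direction under any alternative run. For the age ratio, the smallest decrease of Mt1 (-2.01) was -2.04 with at most 5% mitochondrial UMI, -2.19 with TMM and -1.71 in erythroid-like cells only; that of Mt2 (-3.40) was -3.58 with TMM and -2.96 in erythroid-like cells; the bound for Ndufa4l2 (-7.69) was -6.96 at 5 counts. For the LK genotype ratio, Mt1 (-0.058) was -0.050 at a floor of 15000 UMI, -0.081 at 5% mitochondrial UMI, -0.066 with 5% free RNA removed, -0.017 with TMM and -0.12 in erythroid-like cells; Mt2 (-0.18) was -0.17, -0.21, -0.20, -0.14 and -0.25 in the same order; Ndufa4l2 (0.78) was 0.76 at 5% mitochondrial UMI, 0.83 with TMM and 0.73 in erythroid-like cells. For LSK, Mt1 (0.78) was 0.73 at the higher floor, 0.83 without doublets, 0.65 with TMM and 0.27 in erythroid-like cells; Mt2 (1.08) was 1.12 at 5% mitochondrial UMI, 1.13 without doublets, 1.16 with free RNA removed, 0.96 with TMM and 0.48 in erythroid-like cells; Ndufa4l2 (1.43) was 1.30 and 0.81 in the last 2. The erythroid-like over HSC-like ratio of Mt1 (5.56) was 5.68 without doublets, 5.12 at resolution 0.5 and 4.96 with 50 components; that of Mt2 (5.51) was 5.40 at resolution 0.5, 5.38 at resolution 2 and 5.36 with 50 components. With free RNA removed the HSC-like cells were left at 0, and the ratios became lower bounds of 13.53, 13.15 and 9.48 for Mt1, Mt2 and Ndufa4l2. Co-detection excesses, in percentage points, depended on depth: Mt2 with Mt1 (38.85) was 55.7 at 2000 UMI, 22.8 unthinned, 61.3 at 2 UMI needed and 9.79 without erythroid-like cells; Mt1 with Ndufa4l2 (30.2) was 48.5, 8.26, 49.2 and 11.4; Mt2 with Ndufa4l2 (49.2) was 58.4, 17.6, 67.6 and 18.5. A minimum of 10 UMI gave 246 genes lower in all 4 age pairs, 925, 800, 1047 and 1641 lower in single pairs, and 120 (LK) and 1236 (LSK) higher in Ifnar-/-; TMM gave 423 for that last count and 1500 lower in LSK than LK in Ifnar-/-. The cause of these shifts was not tested. A fit of age over the 4 matched pairs, with fraction and genotype as terms, was not run. With 1 library per group no value carries an error between animals; doublet, floor and mitochondrial alternatives kept the original clusters.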
